A study of Mus musculus with 6 samples.

Results

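Serpin protease inhibitors were followed by 85 of the 56605 mouse probes on each array. They are the non-control probes whose gene name in the scanner files begins with Serpin, a clade letter from a to i and a digit, without Serpinb1a and Serping1, and they carry 62 gene names. Each array held labelled RNA of cultured bone marrow cells from female C57BL/6J mice of 6 to 8 weeks, with 2 arrays for each of 3 groups. MDSC (conv.), the conventional culture of myeloid-derived suppressor cells, were whole bone marrow cells kept for 4 days with 40 ng/mL of the growth factor GM-CSF. 6G- BM-MDSC were cultured for the same time and at the same dose from marrow that had first been depleted of cells with the neutrophil surface antigen Ly-6G by magnetic separation. DCs, dendritic cells, were marrow cells kept for 8 days with 20 ng/mL GM-CSF in dishes that were not treated for culture. All 3 groups received GM-CSF, and the DC cultures differed from both MDSC cultures in dose, time and dish, so that these cannot be told apart.

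Serpins share a fold with an exposed loop that a target protease cuts. In inhibitory serpins the cut loop snaps into the body of the protein and traps the protease in a covalent complex, so that each molecule is used once. Clade B serpins stay inside the cell and guard it against proteases of its own granules or of killer cells, clade A serpins are mostly secreted plasma proteins of the liver, and clades C, D, E, F and I include the inhibitors of clotting and clot lysis, beside members that inhibit no protease. In mice the clade A and clade B genes lie in clusters in which single human genes have become families of paralogs.

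Levels are given as log2 of the processed intensity relative to the 75th percentile of the same array, so that 0 is the 75th percentile and 1 unit is 2-fold, and levels of different probes are not set against each other. A probe was tested when the image software called it well above background on both arrays of at least 1 group. Of the 85 serpin probes 40 passed, for 30 gene names, and 41 were not well above background on any of the 6 arrays. The other 4 passed on 1 or 2 arrays that did not make up a group. Differences are from limma over all 33484 tested probes, with p adjusted by Benjamini-Hochberg over all of them, and "called" means an adjusted p under 0.05. The spread is that between 2 arrays a group, which the labels number without saying whether they were separate cultures or animals. The median gap between the arrays of a group over the 40 tested serpin probes was 0.22 for MDSC (conv.), 0.23 for 6G- BM-MDSC and 0.17 for DCs.

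The 75th percentile lay between 560.2 and 633.3 intensity units, and 55.6% to 59.9% of all probes were well above background on an array. The lowest level called well above background was -5.45 to -5.37 on the 4 MDSC arrays and -4.82 to -4.80 on the DC arrays. Probes never above background had a median of -7.42 to -7.39 on the MDSC arrays and of -6.90 to -6.86 on the DC arrays, so that the probes without signal read higher on the DC arrays. Both MDSC groups lay in array row 1 of the slide and DCs in row 2, and row and culture cannot be told apart. As a check of the labelled cell types, 10 of 11 neutrophil markers were higher in each MDSC group than in DCs, 9 of 10 dendritic cell markers were lower in MDSC (conv.), as were 8 of 10 in 6G- BM-MDSC, where 1, Flt3, was higher (0.50, adjusted p = 0.0167). The summed level of the neutrophil markers was 1414 to 1436 times the 75th percentile for MDSC (conv.), 1148 to 1406 times for 6G- BM-MDSC and 506.2 to 519.5 times for DCs, and that of the dendritic cell markers 712.3 to 767.9, 701.6 to 755.7 and 1175 to 1196 times. In such bulk samples, fewer cells of a type and less RNA per cell cannot be told apart.

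Against DCs, serpin probes were called in both directions. In MDSC (conv.) 10 of the 40 probes were higher (25%) and 8 lower (20%). Of all tested probes 13.4% were higher and 14.3% lower in this comparison. In 6G- BM-MDSC 12 serpin probes were higher and 10 lower, 30% and 25% of the 40, against 15.0% and 16.2% of all tested probes. Both comparisons use the same DC arrays: 10 probes were higher in both, 6 were lower in both and none was called in opposite directions. The median difference of the 40 probes was 0.28 for MDSC (conv.) and 0.27 for 6G- BM-MDSC, and that of all tested probes -0.01 and -0.02. Between 6G- BM-MDSC and MDSC (conv.) limma called none of the 40, where 0.00299% of all tested probes were called higher and 0.00597% lower. With an unadjusted p under 0.05, 7 of the 40 differed between the MDSC groups, of which 5 were up and 2 down in 6G- BM-MDSC, which is 17.5% against 10.7% of all tested probes.

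**Figure D1:**
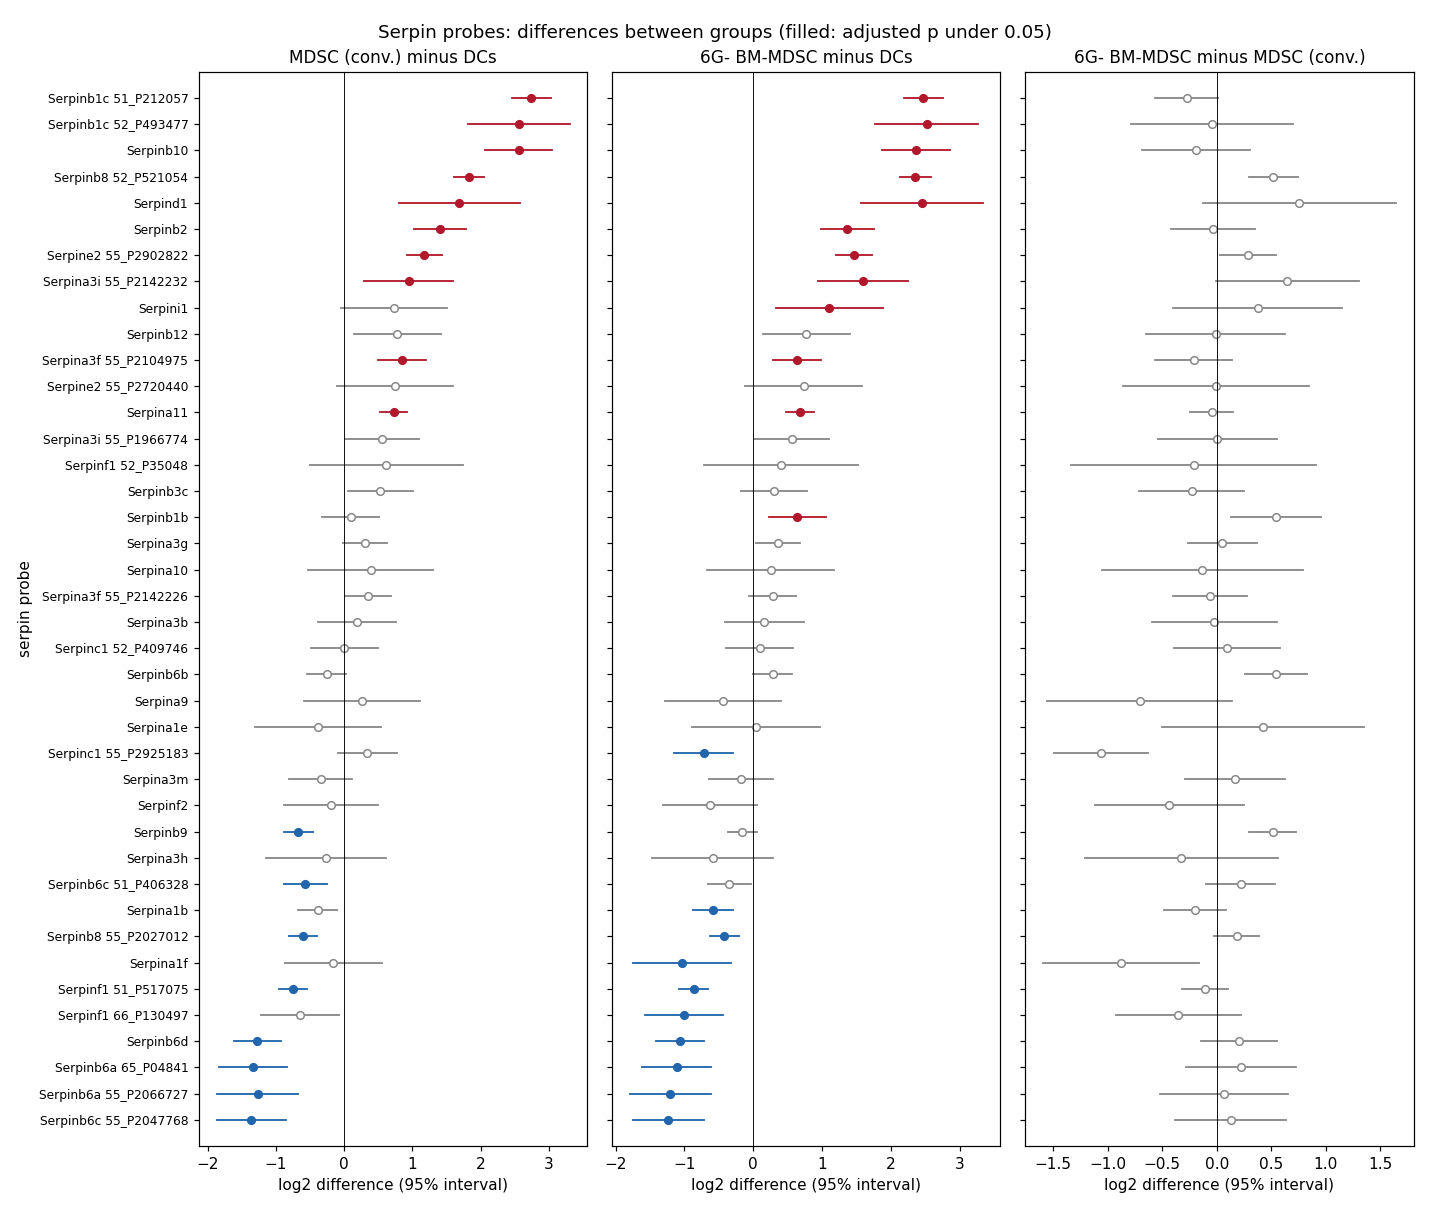
Difference of each of the 40 tested serpin probes between groups on the log2 scale (x axis), one row per probe, with the 95% interval of limma as a line and a filled point where the adjusted p was under 0.05 (red higher, blue lower in the group named first). Against DCs (left, middle) the differences run from -1.36 to 2.75 for MDSC (conv.) and from -1.23 to 2.52 for 6G- BM-MDSC, while no point is filled between the MDSC groups (right, on a narrower axis).

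The clade B genes of chromosome 13 held both the largest positive and the largest negative differences from DCs among the 40 tested probes. Serpinb1c was 6.70-fold higher in MDSC (conv.) than in DCs, while Serpinb6a, Serpinb6c and Serpinb6d were 2.42 to 2.57-fold lower at their most different probe. Of the 20 probes of this cluster 10 were tested. In MDSC (conv.) 2 were higher and 6 lower than in DCs, and in 6G- BM-MDSC 3 were higher and 4 lower. Of all tested probes 13.4% were higher and 14.3% lower in the first comparison, and 15.0% and 16.2% in the second.

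Serpinb1c is a rodent paralog of the gene for the leukocyte elastase inhibitor and was read by 2 tested probes. The probe A_51_P212057, at chr13:32976212-32978061 of mm9, crosses at least 1 intron, since its 60 bases span 1850 bases of the genome. Its levels were 1.71 and 1.95 for MDSC (conv.), 1.49 and 1.62 for 6G- BM-MDSC, with -0.92 and -0.91 for DCs. Both MDSC groups lay above DCs without overlap. The difference from DCs was 2.75 (SE 0.11, adjusted p = 0.000362) in MDSC (conv.) and 2.47 (SE 0.11, adjusted p = 0.000413) in 6G- BM-MDSC. The other Serpinb1c probe, A_52_P493477, read -1.48 and -2.29 for MDSC (conv.), -1.80 and -2.06 for 6G- BM-MDSC, with -4.31 and -4.58 for DCs, a difference of 2.56 (SE 0.29) and 2.52 (SE 0.29). The probes gave the same direction, but with normexp background correction the differences of A_52_P493477 were 1.26 and 1.27, where those of A_51_P212057 were 2.61 and 2.37. In the best ungapped alignment, these probes match the Serpinb1a probe of the array at 20 and 19 bases, where the median over all pairs of the probes compared is 21. Probes were aligned only with probes and not with transcripts, so whether these also bound Serpinb1a RNA was not tested. Serpinb1b, another paralog, lay near background at -4.40 and -4.18 for MDSC (conv.), -3.59 and -3.89 for 6G- BM-MDSC, with -4.24 and -4.52 for DCs. It was called higher in 6G- BM-MDSC than in DCs (0.64, SE 0.16, adjusted p = 0.0392), and not in MDSC (conv.) (0.09, adjusted p = 0.695). The call on Serpinb1b was lost in 11 of 16 alternative settings.

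The Serpinb6 genes are paralogs of the human gene for an inhibitor of cathepsin G and other trypsin-like proteases of myeloid cells. Their probes are shown because Serpinb6a and Serpinb6c moved alike and their sequences are nearly the same where they align. Capitals mark bases that differ from the Serpinb6a probe, 30 aligned bases are printed for each, and the sequences are those of the scanner files.
Serpinb6a A_55_P2066727: accttatccataagtgcaatggcaattatg
Serpinb6c A_55_P2047768: accttatccataagtgcaatgAcaGCtatg
Serpinb6e A_55_P1965363: accttatccataaAtATaatgAcaGttatg

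In this stretch the Serpinb6c probe has 27 and the Serpinb6e probe 25 of 30 bases of the Serpinb6a probe. Over their whole overlap, 39 of 42 bases of the Serpinb6c probe and 43 of 55 bases of the Serpinb6e probe match it. Whether a probe also bound the transcript of the other gene was not tested.

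The Serpinb6a probe A_55_P2066727, at chr13:34009796-34009855 of mm9 on the minus strand, read 3.29 and 2.92 for MDSC (conv.), 3.44 and 2.90 for 6G- BM-MDSC, with 4.50 and 4.26 for DCs. The Serpinb6c probe A_55_P2047768 read 3.14 and 2.76, 3.30 and 2.86, and 4.37 and 4.24 in the same order. For both, each DC array lay above every MDSC array. Serpinb6a was lower than in DCs by 1.27 (SE 0.23, adjusted p = 0.017) in MDSC (conv.) and by 1.20 (SE 0.23, adjusted p = 0.0183) in 6G- BM-MDSC. Serpinb6c was lower by 1.36 (SE 0.20, adjusted p = 0.00952) and by 1.23 (SE 0.20, adjusted p = 0.0116). Each gene name had a second tested probe at another position of mm9. That of Serpinb6c, A_51_P406328, matched no RefSeq transcript by its listed accessions. A_65_P04841 of Serpinb6a gave 0.41 and 0.05, 0.66 and 0.25, and 1.67 and 1.46, a difference of -1.33 (SE 0.20) and of -1.11 (SE 0.20), both called. A_51_P406328 of Serpinb6c gave -0.69 and -0.95, -0.54 and -0.66, and -0.18 and -0.32, which was called in MDSC (conv.) (-0.57, SE 0.12, adjusted p = 0.0276) and not in 6G- BM-MDSC (-0.35, SE 0.12, adjusted p = 0.0882). This difference was smaller than that of the other Serpinb6c probe, the one that aligns with Serpinb6a.

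Serpinb6d read -3.91 and -3.72 for MDSC (conv.), -3.47 and -3.74 for 6G- BM-MDSC, with -2.46 and -2.63 for DCs. It was lower than in DCs by 1.27 (SE 0.14, adjusted p = 0.00393) and by 1.07 (SE 0.14, adjusted p = 0.00601), with no overlap between DCs and either MDSC group. Serpinb6b was called in neither comparison. Its probe, A_55_P2013043, read 3.71 and 3.72 for MDSC (conv.), 4.37 and 4.15 for 6G- BM-MDSC, with 4.06 and 3.90 for DCs, so that DCs lay between the MDSC groups. The difference from DCs was -0.26 (95% interval -0.54 to 0.03) in MDSC (conv.), where it was called with normexp background correction, and 0.28 (95% interval -0.00397 to 0.57) in 6G- BM-MDSC, where it was called with a prior variance that depends on intensity. Serpinb6e was well above background on 1 DC array only, at -4.39, and no MDSC array was. Another Serpinb6a probe, A_55_P2716351, was well above background on 1 array of each MDSC group and on no DC array, at levels of -6.75 to -4.81 over the 6 arrays, and was not tested.

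The calls on the Serpinb6a and Serpinb6c probes rest on few arrays. Without DCs replicate 1 or replicate 2, Serpinb6a A_55_P2066727 was not called in either comparison, and over all alternatives its adjusted p reached 0.0874 for MDSC (conv.) and 0.0779 for 6G- BM-MDSC, with the direction kept. Serpinb6d was called in every one of the 16 alternatives of either comparison other than the methods' test.

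Serpinb9 encodes the intracellular inhibitor of granzyme B. Its probe read 2.97 and 2.92 for MDSC (conv.), 3.45 and 3.47 for 6G- BM-MDSC, with 3.68 and 3.55 for DCs. All 6 values lay within 1 unit, with MDSC (conv.) lowest. MDSC (conv.) were lower than DCs by 0.67 (SE 0.08, adjusted p = 0.00619). The difference of 6G- BM-MDSC from DCs was -0.16 (95% interval -0.37 to 0.06, adjusted p = 0.209), and that of 6G- BM-MDSC from MDSC (conv.) was 0.51 (SE 0.08), with an unadjusted p of 0.00161 and an adjusted p of 0.266. None of the probes of the paralogs Serpinb9b, Serpinb9c, Serpinb9d, Serpinb9e, Serpinb9f and Serpinb9g was well above background on any array. The probes of Serpinb9f and Serpinb9g match at 52 of 59 aligned bases, and the Serpinb9f probe is listed for transcripts of Serpinb9e as well.

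**Figure D2:**
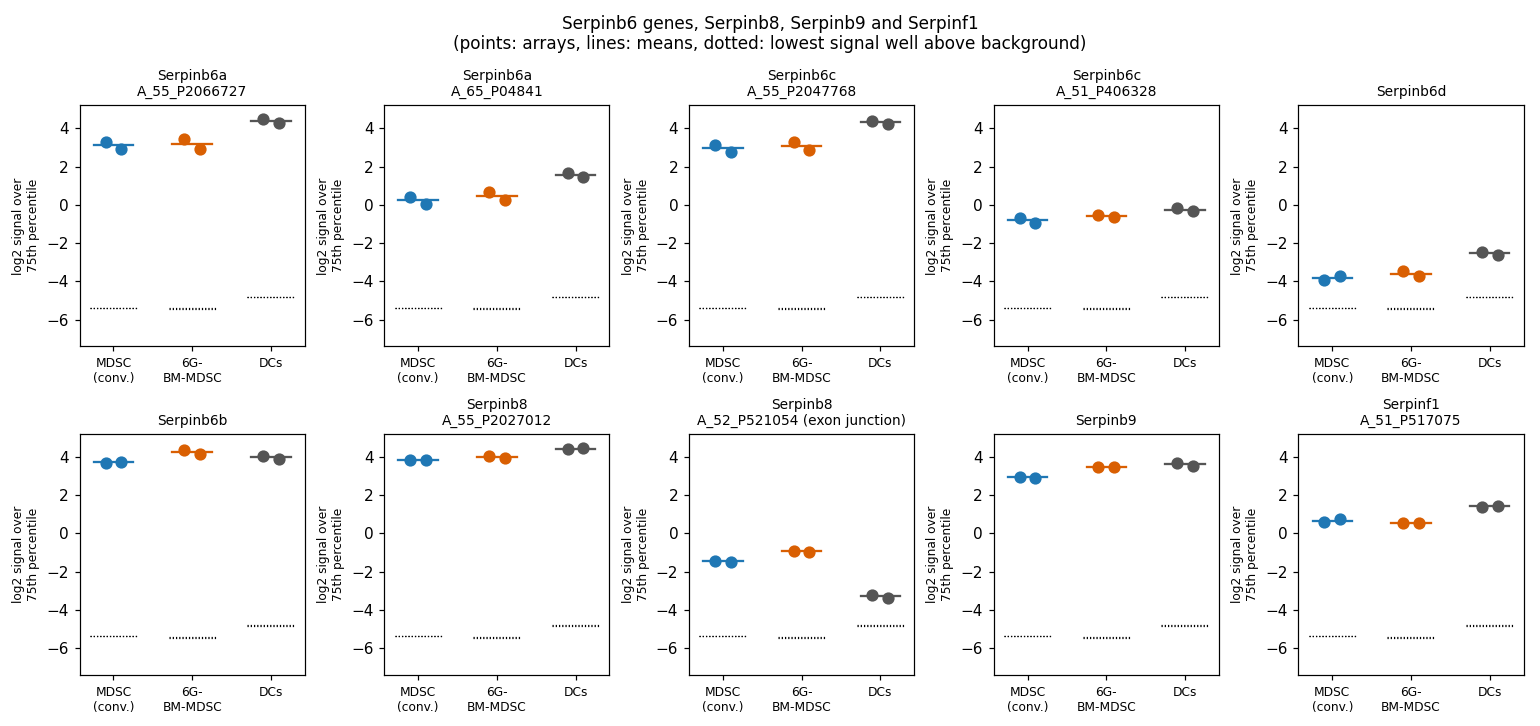
Level of 10 serpin probes on each array (y axis, log2 of the intensity over the 75th percentile), by group, with points for arrays, solid lines for group means and dotted lines for the lowest level called well above background on each array. The Serpinb6a, Serpinb6c and Serpinb6d probes sit highest in DCs, Serpinb6b does not, and the Serpinb8 probes go opposite ways.

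At the distal end of the clade B cluster of chromosome 1, the neighbours Serpinb2, Serpinb10 and Serpinb8 were well above background on all 6 arrays. Serpinb2 and Serpinb10 lay above DCs in both MDSC groups, by 2.58 to 5.89-fold, and the probes of Serpinb8 went opposite ways. Of the other 9 genes of this cluster only Serpinb12 and Serpinb3c had a tested probe, with levels of -4.21 to -3.05 and no call.

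Serpinb10, bomapin, is a serpin of the nucleus that is expressed in myeloid cells and their precursors. Its probe, at chr1:109443390-109443449 of mm9 on the plus strand, read 1.77 and 2.03 for MDSC (conv.), 1.62 and 1.80 for 6G- BM-MDSC, with -0.41 and -0.90 for DCs. The difference from DCs was 2.56 (SE 0.19, adjusted p = 0.00161), or 5.89-fold, in MDSC (conv.) and 2.37 (SE 0.19, adjusted p = 0.00183), or 5.16-fold, in 6G- BM-MDSC. Serpinb2 encodes plasminogen activator inhibitor 2, which inhibits urokinase and is a well-known inducible product of monocytes and macrophages. It read 0.19 and 0.38 for MDSC (conv.), 0.23 and 0.27 for 6G- BM-MDSC, with -0.93 and -1.30 for DCs. All 4 MDSC arrays lay above both DC arrays. The difference was 1.40 (SE 0.15, adjusted p = 0.00395) and 1.37 (SE 0.15, adjusted p = 0.00401), and the groups of MDSC differed by -0.03 (95% interval -0.42 to 0.35).

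Serpinb8 encodes an intracellular inhibitor of furin and related proteases. It is the one gene whose probes were called in opposite directions against DCs, so 30 bases of each, from base 6 to base 35, are shown.
Serpinb8 A_52_P521054: gaaacacatcaatgactgggtgtcggaaaa
Serpinb8 A_55_P2027012: cgtctctctgtgtgtgtttgtgtgtatgtg

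The first lies at chr1:109499452-109501197 of mm9 and spans 1746 bases, so it crosses at least 1 intron and reads a spliced RNA. The second lies downstream, at chr1:109504865-109504924, in 1 piece. A_52_P521054 read -1.44 and -1.47 for MDSC (conv.), -0.92 and -0.95 for 6G- BM-MDSC, with -3.21 and -3.37 for DCs. On this probe the MDSC groups were higher than DCs by 1.83 (SE 0.09, adjusted p = 0.000512) and 2.35 (SE 0.09, adjusted p = 0.000302). A_55_P2027012 read 3.82 and 3.84, 4.07 and 3.96, and 4.41 and 4.46, so that DCs were highest on it. The difference was -0.60 (SE 0.08, adjusted p = 0.00732) and -0.42 (SE 0.08, adjusted p = 0.0183), the second of which was not called without either DC array or 6G- BM-MDSC replicate 2 (adjusted p up to 0.082). The probes share no more bases than other pairs, 20 in the best ungapped alignment. The Serpinb8 probes therefore give no single direction in these data. The printed bases of A_55_P2027012 are largely repeats of gt, and whether it also bound other RNA was not tested. On the junction probe, 6G- BM-MDSC read 0.52 (SE 0.09) above MDSC (conv.), with an unadjusted p of 0.00184 and an adjusted p of 0.278.

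The promoters of these 3 neighbours are printed because the data bear on all of them. They come from RefSeq on GRCm38.p6, which is a different build from that of the probes, and 53 of the 62 gene names had an entry. Each runs from 250 bases before the start site to 25 bases after it, on the plus strand. Capitals mark matches, on either strand, to the motifs named AP-1 (TGANTCA), GAS (TTCNNNGAA), C/EBP (TTGCNNAA) and PU.1 (GAGGAA). No match overlapped another in these stretches.
Serpinb2, chr1:107511173-107511447: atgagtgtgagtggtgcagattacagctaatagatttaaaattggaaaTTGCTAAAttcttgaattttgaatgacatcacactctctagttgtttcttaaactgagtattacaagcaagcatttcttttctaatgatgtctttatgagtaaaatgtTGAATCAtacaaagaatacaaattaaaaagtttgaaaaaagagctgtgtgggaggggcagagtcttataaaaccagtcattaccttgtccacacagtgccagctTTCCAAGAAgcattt
Serpinb10, chr1:107528753-107529027: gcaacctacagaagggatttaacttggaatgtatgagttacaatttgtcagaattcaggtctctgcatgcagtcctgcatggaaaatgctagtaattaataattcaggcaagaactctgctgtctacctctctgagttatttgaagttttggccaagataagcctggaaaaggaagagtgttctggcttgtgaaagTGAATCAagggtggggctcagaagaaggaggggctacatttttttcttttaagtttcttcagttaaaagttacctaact
Serpinb8, chr1:107589756-107590030: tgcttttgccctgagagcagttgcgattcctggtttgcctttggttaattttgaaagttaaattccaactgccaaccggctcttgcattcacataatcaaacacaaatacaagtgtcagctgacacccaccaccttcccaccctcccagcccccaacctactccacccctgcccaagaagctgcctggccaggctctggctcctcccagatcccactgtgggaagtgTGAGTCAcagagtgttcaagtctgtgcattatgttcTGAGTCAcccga

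Each held the AP-1 letters. The match began 94 bases before the start site in Serpinb2, 54 before it in Serpinb10, and 23 before and 13 after it in Serpinb8. Serpinb2 also has another listed start site, whose promoter is not printed. The same AP-1 match began 181 bases before that site, and the GAS match 77 bases before it. Of all 32851 promoter windows of 300 bases in the table, 7.81% held them. In the windows of the chromosome 1 Serpinb genes, which run to 50 bases after the start site, 7 of 11 genes held the AP-1 letters and 1 of 11 the PU.1 letters, and in those of chromosome 13 none of 14 held AP-1 and 9 of 14 held PU.1, which 28.3% of all windows held. Serpinb2 alone of the 3 also held the GAS and C/EBP letters, found in 8.30% and 10.8% of all windows. These are matches of letters, the genes of a cluster share ancestry, and 3 of the 7 AP-1 holders of chromosome 1, Serpinb5, Serpinb7 and Serpinb11, were well above background on no array. The same holds for Serpinb9b, Serpinb9d, Serpinb9e, Serpinb9f and Serpinb9g among the 9 PU.1 holders of chromosome 13. A gene was counted when any of its windows held the letters, while the shares of all windows count each window.

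**Figure D3:**
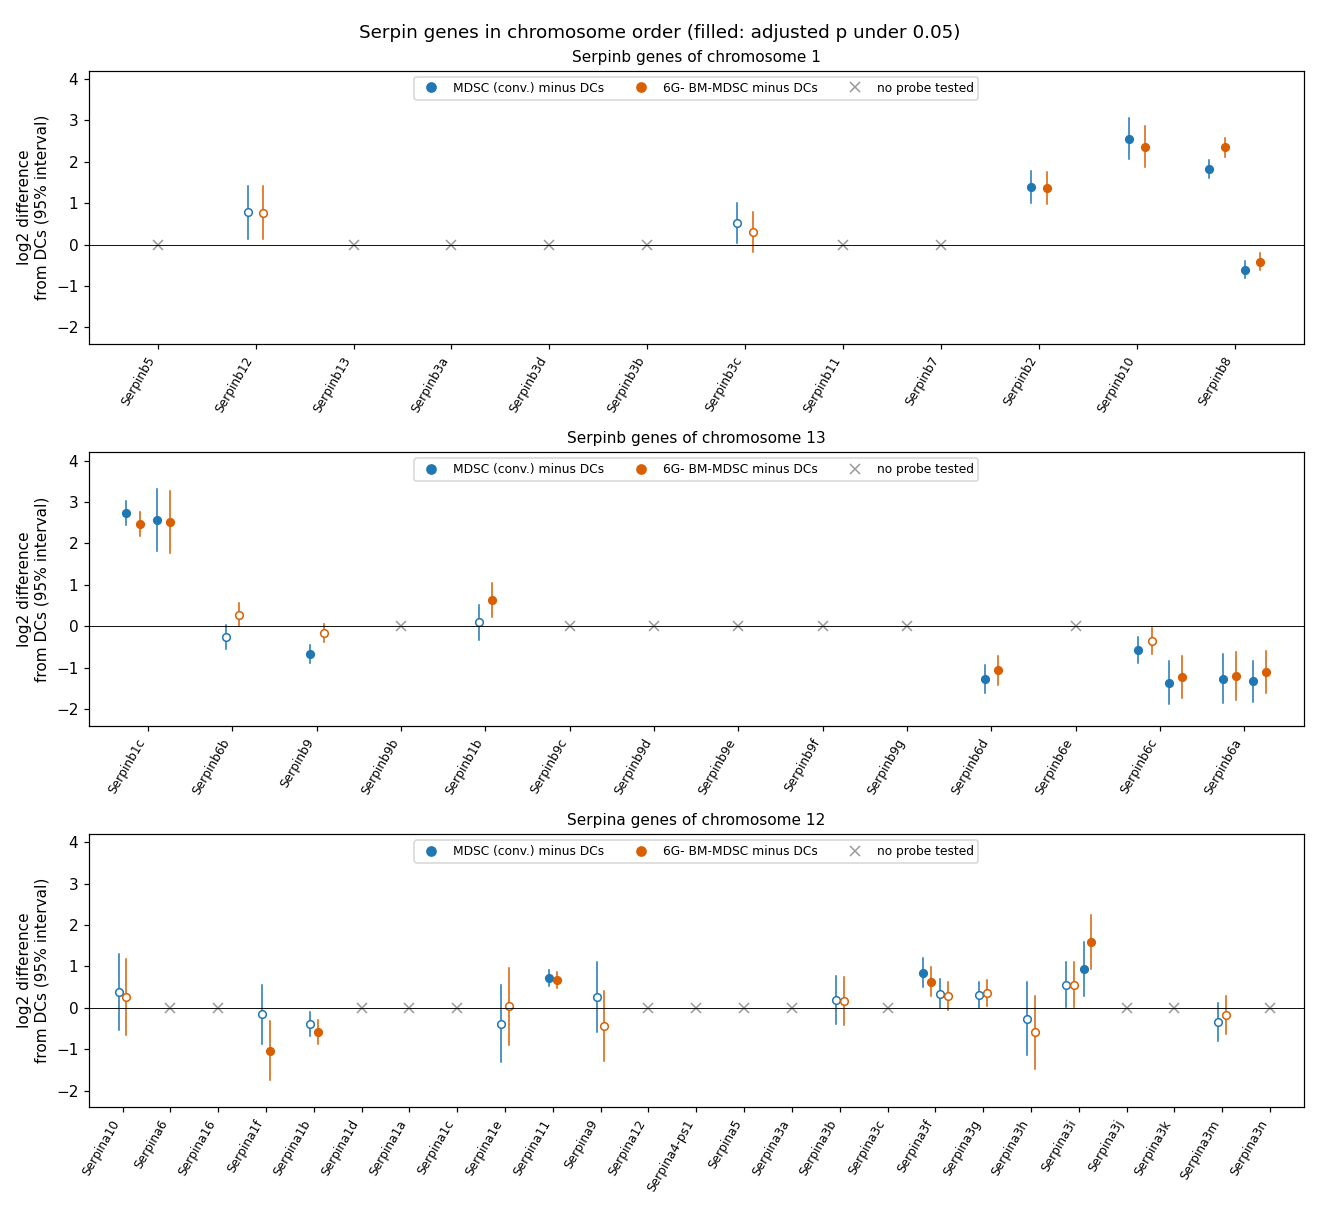
Difference from DCs (y axis, log2, with 95% intervals) of every tested serpin probe in the chromosome 1, 13 and 12 clusters, with genes in chromosome order along the x axis, blue for MDSC (conv.) and orange for 6G- BM-MDSC, filled where the adjusted p was under 0.05 and a cross where no probe was tested. On chromosome 13 the differences run from 2.75 at Serpinb1c to -1.36 at Serpinb6c, and on chromosome 1 the called probes lie in Serpinb2, Serpinb10 and Serpinb8.

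Among the serpins of clotting and clot lysis, the Serpine2 probe A_55_P2902822 and the Serpind1 probe were called higher than in DCs in both MDSC groups. Serpine2, protease nexin 1, is a cell-bound inhibitor of thrombin, urokinase and plasmin. Its probe A_55_P2902822, at chr1:79790914-79790973 of mm9 on the minus strand, read 2.29 and 2.46 for MDSC (conv.), 2.64 and 2.69 for 6G- BM-MDSC, with 1.12 and 1.27 for DCs. The difference was 1.18 (SE 0.10, adjusted p = 0.00218), or 2.26-fold, in MDSC (conv.) and 1.47 (SE 0.10, adjusted p = 0.0012), or 2.76-fold, in 6G- BM-MDSC. The second Serpine2 probe, A_55_P2720440, lay near background at -4.78 to -3.40 and was not called (0.74 and 0.73, SE 0.33). Bases 6 to 35 of A_55_P2902822 are largely repeats of gtt and gct, and whether it also bound other RNA was not tested. Serpind1, heparin cofactor II, inhibits thrombin. It read -4.68 and -4.64 for MDSC (conv.), -3.89 and -3.91 for 6G- BM-MDSC, with -6.89 and -5.81 for DCs, where neither array was well above background, so it passed the filter only through the groups where it was high. Its fold over DCs is therefore a bound, at least 1.11-fold in MDSC (conv.) (adjusted p = 0.0238) and at least 1.88-fold in 6G- BM-MDSC (adjusted p = 0.008), each set against the lowest level called well above background on the DC arrays. The call on Serpind1 in MDSC (conv.) was lost in 3 of 15 alternatives, normexp background correction among them.

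Other inhibitors of this pathway were dim. Serpinc1, antithrombin, was read by A_52_P409746 at -4.13 to -3.59 with no call, and by A_55_P2925183 at -3.94 and -4.11 for MDSC (conv.), -4.87 and -5.29 for 6G- BM-MDSC, with -4.44 and -4.28 for DCs. The second was called lower in 6G- BM-MDSC than in DCs (-0.72, SE 0.17, adjusted p = 0.031), the first was not (0.09, SE 0.19), and the call was lost in 8 of 14 alternatives. Serpini1, neuroserpin, an inhibitor of tissue plasminogen activator, read -3.86 and -4.28, -3.57 and -3.81, and -5.20 and -4.40. It was called higher in 6G- BM-MDSC (1.11, SE 0.30, adjusted p = 0.0472), a call that 8 of 15 alternatives lost, and not in MDSC (conv.) (0.73, adjusted p = 0.137). Serpinf2, the plasmin inhibitor alpha 2-antiplasmin, read -4.47 to -3.34 over the 6 arrays and Serpina10, which inhibits factor Xa together with protein Z, -5.12 to -4.09, and neither was called. These probes lie near the background level, which differed between the MDSC and DC arrays as given above, and its part in their differences was not tested.

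Serpinf1 encodes pigment epithelium-derived factor, a secreted serpin that inhibits no protease and is known for blocking vessel growth. Its probe A_51_P517075, at chr11:75223568-75223627 of mm9, read 0.61 and 0.73 for MDSC (conv.), 0.55 and 0.57 for 6G- BM-MDSC, with 1.40 and 1.46 for DCs. It was lower than in DCs by 0.75 (SE 0.08, adjusted p = 0.00415) and by 0.86 (SE 0.08, adjusted p = 0.0027). A_66_P130497 read -0.59 and -0.51, -0.57 and -1.24, and 0.09 and 0.11, and was called in 6G- BM-MDSC (-1.01, SE 0.22, adjusted p = 0.0273) and not in MDSC (conv.) (-0.66, SE 0.22, adjusted p = 0.0881). The call in 6G- BM-MDSC was lost in 5 of 15 alternatives, without either DC array among them, and the probe was called in MDSC (conv.) with only the 4 arrays compared, with a prior variance that depends on intensity and without either 6G- BM-MDSC array. The third tested probe, A_52_P35048, was near background at -5.70 to -4.32 and had no call. Serpinh1, the collagen chaperone HSP47 of fibroblasts and other collagen-making cells, was well above background on 1 array at 1 of its 2 probes, at -4.78 on an array of 6G- BM-MDSC.

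**Figure D4:**
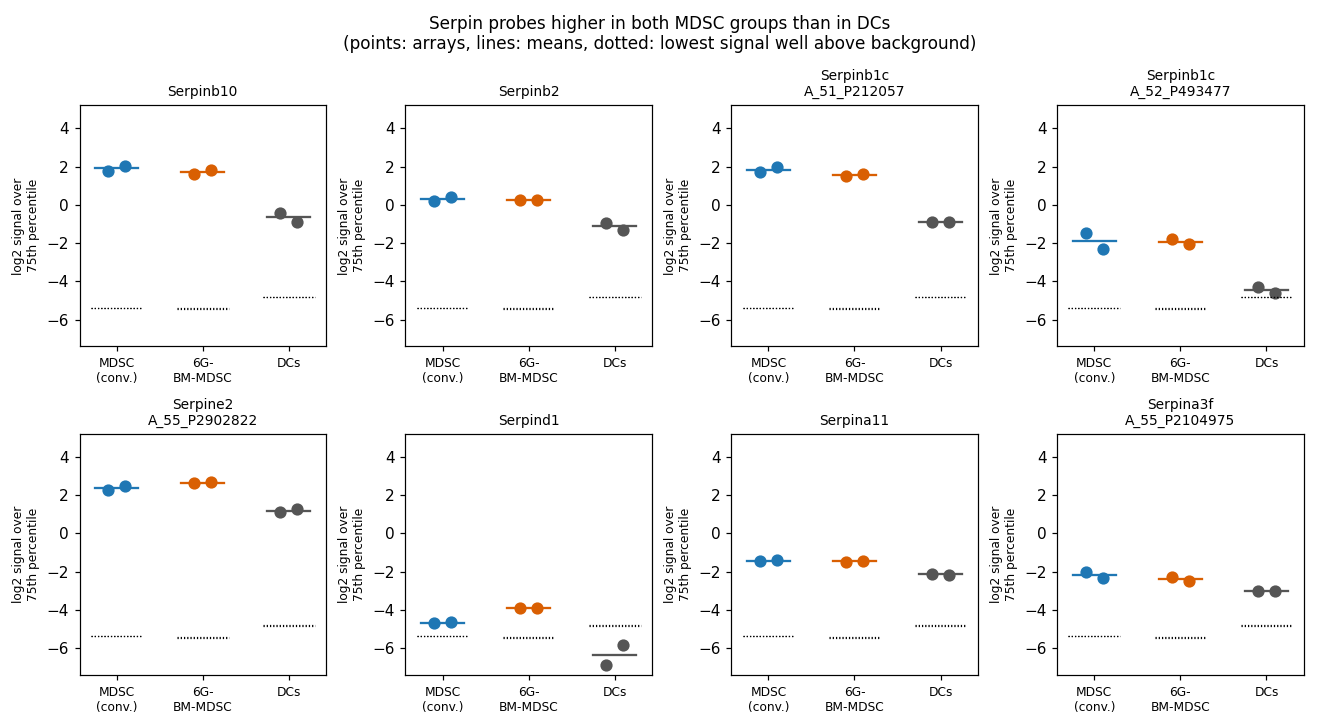
Level of 8 serpin probes on each array (y axis, log2 of the intensity over the 75th percentile), by group, chosen from the 10 called above DCs in both MDSC groups, with points for arrays, solid lines for group means and dotted lines for the lowest level called well above background on each array. In every panel all 4 MDSC arrays sit above both DC arrays, and for Serpind1 both DC arrays sit below the dotted line.

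Clade A serpins, mostly plasma proteins of the liver, were largely dim. Of their 34 probes 14 were tested and 20 were never well above background. Of the 6 hepatocyte markers listed, Alb, Apoa1, Ttr and Ahsg were well above background on no array, Fgb was on 1 DC array, at -3.54, and Tf had no probe matched here. Serpina3g, also called Spi2A, an intracellular serpin of leukocytes that inhibits cathepsins, lay above the 75th percentile of every array. It read 4.29 and 4.29 for MDSC (conv.) and 4.51 and 4.18 for 6G- BM-MDSC, and the DC arrays averaged 3.99 ± 0.02 (SD, n = 2). All 4 MDSC arrays lay above both DC arrays, but neither difference passed the test (0.31, 95% interval -0.01 to 0.62, adjusted p = 0.13, and 0.36, 95% interval 0.04 to 0.67, adjusted p = 0.084). With normexp background correction Serpina3g was called in both comparisons.

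Other members of the Serpina3 family, paralogs of human alpha 1-antichymotrypsin, had called probes at low levels. Serpina3f A_55_P2104975 read -2.01 and -2.33 for MDSC (conv.), -2.29 and -2.47 for 6G- BM-MDSC, with -3.03 and -3.00 for DCs, a difference of 0.85 (SE 0.14, adjusted p = 0.0128) and 0.64 (SE 0.14, adjusted p = 0.0258). Without either DC array neither was called, and in 6G- BM-MDSC the call was also lost without either of its own arrays (adjusted p up to 0.0572 and 0.0986). The other Serpina3f probe, A_55_P2142226, is listed for transcripts of Serpina3h too, and was not called (0.35 and 0.28, SE 0.13). Serpina3i A_55_P2142232, whose sequence matches that of the Serpina3h probe at 51 of 57 bases, read -5.61 and -4.97, -4.57 and -4.72, and -6.02 and -6.45, with 1 array of MDSC (conv.), both of 6G- BM-MDSC and none of DCs well above background. It passed the filter only through 6G- BM-MDSC, the group where it was highest, so that its calls against DCs (adjusted p = 0.0497 and adjusted p = 0.0113) are not independent of that choice. The bound on its fold was 1.12 in 6G- BM-MDSC, none can be given for MDSC (conv.), whose mean lay below the level set as the limit on the DC arrays, and there the call was lost in 11 of 14 alternatives. The second Serpina3i probe, A_55_P1966774, read -4.30 to -3.36 and was not called (0.55 and 0.56, SE 0.21). Serpina3h read -3.26 to -2.22, Serpina3b -2.54 to -1.92 and Serpina3m -4.71 to -4.17, and none of these had a call. In their promoter windows, 3 of 8 Serpina3 genes held the GAS letters.

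Serpina11, a secreted serpin, read -1.45 and -1.38 for MDSC (conv.), -1.50 and -1.43 for 6G- BM-MDSC, with -2.12 and -2.16 for DCs. The arrays of each group lay within 0.1 of each other, and the difference was 0.72 (SE 0.08, adjusted p = 0.00393) and 0.68 (SE 0.08, adjusted p = 0.00444). Among the Serpina1 genes, paralogs of the gene for alpha 1-antitrypsin, Serpina1b read -2.86 and -2.89, -2.98 and -3.17, and -2.39 and -2.59. It was lower than in DCs by 0.58 (SE 0.11, adjusted p = 0.0185) in 6G- BM-MDSC, and the difference of -0.39 in MDSC (conv.) did not pass (adjusted p = 0.0593). The first call was lost without 6G- BM-MDSC replicate 2 and without DCs replicate 1 (adjusted p up to 0.08), and the difference in MDSC (conv.) was called with normexp background correction, with the replicate block and over probes well above background on all 6 arrays. Serpina1f was called lower in 6G- BM-MDSC, where no array was well above background, than in DCs, where 1 of 2 was. The bound was 1.95-fold (adjusted p = 0.046), and the call was lost in 5 of 15 alternatives, without either array of 6G- BM-MDSC or of DCs among them (adjusted p up to 0.164). Serpina1e read -4.98 to -3.79 and Serpina9 -4.99 to -3.59, with no call. Several of these paralogs cannot be told apart on the array, since the Serpina1c probe is listed for transcripts of Serpina1a and Serpina1b, the Serpina1d probe for those of Serpina1b, and the Serpina1c probe matches the Serpina1e probe at 49 of 59 bases.

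Depletion of Ly-6G+ cells before culture left no serpin probe past the test. The differences of 6G- BM-MDSC from MDSC (conv.) ran from -1.06 at Serpinc1 A_55_P2925183 to 0.76 at Serpind1, with a median of -0.01, and the lowest adjusted p was 0.259. The 5 probes that were up with an unadjusted p under 0.05 were those of Serpinb9, the Serpinb8 junction, Serpinb6b, Serpinb1b and Serpine2, with differences of 0.29 to 0.54, and they were named after their values were seen. None of them was called. The 2 lower ones were Serpinc1 A_55_P2925183 and Serpina1f, at -1.06 and -0.88, both near background. The interval of a single probe reached from -0.42 to 0.35 at Serpinb2 and from -0.56 to 0.01 at Serpinb1c A_51_P212057, so that a 2-fold change of either lay outside its interval. For 11 of the 40 probes, Serpind1, Serpina9, Serpina1f and Serpinc1 A_55_P2925183 among them, the interval held a 2-fold change. In this comparison the neutrophil markers had 0 of 11 called, with a median difference of -0.17, and no gene of the lists below was called.

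The proteases that serpins act on were read in the same arrays, from lists written with earlier results of these data known, each gene by its probe with the highest mean level. Of 13 genes for neutrophil and mast cell serine proteases 7 were tested and 6 were higher than in DCs in each MDSC group, with a median difference of 3.44 and 3.38. Of all tested probes 13.4% and 15.0% were higher. Ctsg, which encodes cathepsin G, read 6.70 and 6.70 for MDSC (conv.), 6.45 and 6.45 for 6G- BM-MDSC, with 2.30 and 2.52 for DCs. Elane, the gene of neutrophil elastase, read 6.00 and 6.00, 5.82 and 5.78, and 2.08 and 2.30. Prtn3, proteinase 3, was higher than in DCs by 4.28 and 3.85, and Prss57 by 3.43 and 2.99. So Serpinb1c was higher, and Serpinb6d and the aligned probes of Serpinb6a and Serpinb6c lower, in the groups in which Elane and Ctsg were higher. Gzmb, granzyme B, the target of Serpinb9, was dim at -3.47 and -5.10, -3.65 and -4.30, and -6.17 and -7.05, with no DC array well above background. It passed the filter only through the MDSC groups, where it was high, so its calls against DCs are not independent of that choice. It was called higher in both MDSC groups, at least 1.44-fold (adjusted p = 0.0481) and at least 1.78-fold (adjusted p = 0.0318). The summed level of the neutrophil markers moved in the direction of these proteases and of Serpinb1c and Serpinb10, that of the basophil and mast cell markers also did, at 74.4 to 78.8 times the 75th percentile in the MDSC groups and 11.8 to 15.2 times in DCs. So did the megakaryocyte and platelet markers, with 5 of 6 higher in each MDSC group and sums of 31.5 to 38.8 times against 8.37 to 12.1 times, and the monocyte markers, with 3 of 6 higher in each, 1 lower in MDSC (conv.), and sums of 381.6 to 429.3 times against 193.6 to 211.1 times, the direction also of Serpinb2 and Serpine2 A_55_P2902822. The part of these cells in the serpin differences was not tested. The 8 macrophage markers summed to 106.7 to 114.1 times in the MDSC groups and 171.3 to 190.8 times in DCs. The 10 dendritic cell markers summed to 701.6 to 767.9 times and 1175 to 1196 times, though 1 of them was called higher in 6G- BM-MDSC. Serpinb6d, the aligned Serpinb6a and Serpinb6c probes and Serpinf1 A_51_P517075 went in the direction of both sums. The part of macrophages and dendritic cells in these differences was not tested either.

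**Figure D5:**
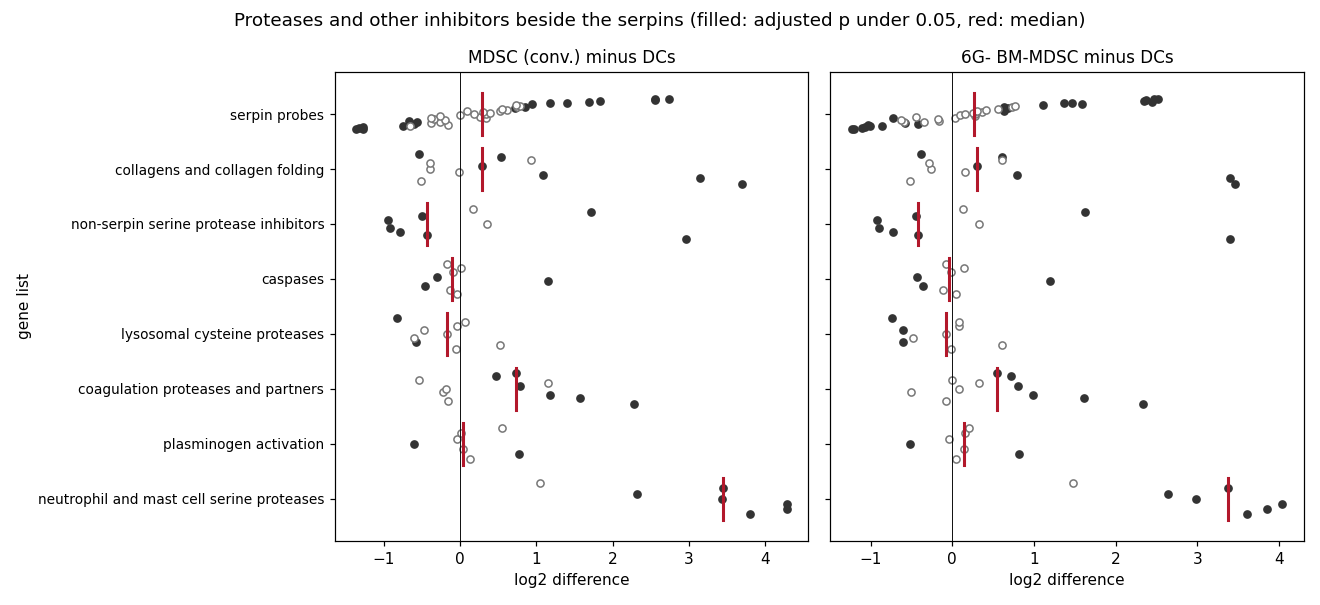
Difference from DCs (x axis, log2) of each tested gene of 7 lists and of the 40 serpin probes, with a filled point where the adjusted p was under 0.05 and a red line at the median. The granule proteases lie at a median of 3.44 (left) and 3.38 (right), while the serpin probes spread to both sides with medians of 0.28 and 0.27.

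In the plasminogen system, 1 of 7 tested genes was higher and 1 lower than in DCs in each MDSC group, which is near the share of all tested probes (13.4% higher and 14.3% lower for MDSC (conv.), 15.0% and 16.2% for 6G- BM-MDSC). Plaur, the urokinase receptor, was higher by 0.77 and 0.82, and S100a10, a plasminogen receptor subunit, was lower by 0.61 and 0.52. Plau, urokinase, the target of Serpinb2 and Serpine2, read 1.94 and 1.90 for MDSC (conv.), 1.84 and 1.82 for 6G- BM-MDSC, with 1.79 and 1.79 for DCs, and was not called (0.13 and 0.04). Of the clotting proteases and their partners 6 of 11 were higher in each MDSC group and none was lower, beside the 13.4% and 15.0% of all tested probes called higher. F2r, a thrombin receptor, was higher by 2.28 and 2.33, F3, tissue factor, which was well above background on 1 of 2 DC arrays, by 1.58 and 1.62, F5, factor V, by 1.18 and 0.98, and F10, factor X, by 0.78 and 0.81. F2, the gene of thrombin itself, was well above background on no array.

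Serine protease inhibitors of other families also went both ways. Of 9 tested genes, 2 were higher and 5 lower than in DCs in each MDSC group, with a median difference of -0.44 and -0.42. Of all tested probes 13.4% were higher and 14.3% lower for MDSC (conv.), and 15.0% and 16.2% for 6G- BM-MDSC. Slpi, the secretory leukocyte protease inhibitor of elastase and cathepsin G, was higher by 2.96 and 3.40 and Wfdc21 by 1.72 and 1.63, while Wfdc17 was lower by 0.94 and 0.93, and Spint2, an inhibitor of membrane serine proteases, by 0.80 and 0.73. Of 9 lysosomal cysteine proteases none was higher, and 2 were lower in MDSC (conv.), with 3 in 6G- BM-MDSC, among them Lgmn, legumain, by 0.83 and 0.74, and Ctsh, cathepsin H, by 0.58 and 0.60. Of 8 caspases 1 was higher and 2 were lower in each MDSC group, beside the same shares. Casp4 was higher by 1.16 and 1.19 and Casp6 was lower by 0.30 and 0.43. Of 11 tested genes of collagens and collagen folding 5 were higher and 1 lower in each MDSC group, where 13.4% and 15.0% of all tested probes were higher and 14.3% and 16.2% lower, among the higher ones Col1a1 and Col4a2. Neither was well above background on a DC array, so both passed the filter only through the MDSC groups, where they were high. Their folds over DCs were at least 8.30 and 7.06 for Col1a1 and at least 2.76 and 3.29 for Col4a2. Over all tested probes the median difference was -0.01 and -0.02.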

How the data were processed

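Labelled RNA of 6 samples was hybridised to Agilent mouse arrays read in a single dye, all on 1 slide scanned once. Per the file headers, the deposited intensity is the image software's processed signal, background-subtracted and corrected for trends within an array but not scaled between arrays. The software, Agilent Feature Extraction, has version 10.5.1.1 in the submitters' processing notes and 10.7.3.1 in the headers. A deposited table of values repeats these intensities, rounded. Columns of all 6 arrays were used.

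Intensities were read in R 4.3.3 with the data.table package (1.17.8). Spots marked as outliers were left out (no serpin spot was), spots of a probe were averaged, log2 was taken, and each array's 75th percentile was subtracted. Groups were compared with limma 3.58.1 (lmFit, eBayes) in 1 fit to the 6 arrays, with 3 residual and 2.06 prior degrees of freedom. The script was tested on simulated data. Two-sided p was adjusted by Benjamini-Hochberg over 33484 probes. With 2 arrays a group, precision is limited by their number. Every serpin probe well above background on both arrays of a group was named, others by counts (some are not reported here by name), and of each gene list up to 4 called genes with the largest differences, or otherwise the highest levels. The members and lists were chosen with earlier results of these data known. The files place the probes on mm9. No annotation of that build was used here, so exon or UTR is not given. Gene order and promoters are from RefSeq on GRCm38.p6. By their listed accessions, 10 of the 85 serpin probes matched no RefSeq transcript. Among them are Serpinb6c A_51_P406328, Serpina3g A_51_P326191, Serpinc1 A_55_P2925183 and Serpine2 A_55_P2720440. Alternatives were another background correction (normexp, offset 50), quantile normalization, other filters, marked spots kept, the deposited table of values, a fit to the 4 arrays compared, a replicate block, a prior variance that depends on intensity, the brightest probe per gene, the methods' test and each array left out.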

Additional observations from a re-analysis of the deposited data

Results flagged for a closer look

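The arrays of 2 of the 40 tested serpin probes put the MDSC groups on opposite sides of the DC arrays. How many of all tested probes did so was not counted, so this count is not read as a result about serpins. Serpinb6b A_55_P2013043 lay below both DC arrays on both arrays of MDSC (conv.) and above them on both of 6G- BM-MDSC. Between the MDSC groups it was higher by 0.54 in 6G- BM-MDSC (95% interval 0.26 to 0.83), which limma did not call (adjusted p = 0.315). Serpinc1 A_55_P2925183 lay on the other sides, above DCs in MDSC (conv.) and below them in 6G- BM-MDSC, with a difference of -1.06 between the MDSC groups (95% interval -1.49 to -0.63, adjusted p = 0.259). The Serpinc1 probe was near background, and on 1 of the 6G- BM-MDSC arrays it was not well above it. The second Serpinc1 probe did not show this, with a difference of 0.09 between the MDSC groups. With 2 arrays a group, single arrays were not checked for outliers.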

How the results depend on the processing

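Against DCs, 9 of the 16 probes called in both comparisons were called under every alternative that included them, other than the methods' test. They are the probes of Serpinb2, Serpinb10, Serpina11, Serpinb6d and Serpinb1c, the Serpinb8 junction probe, Serpine2 A_55_P2902822 and Serpinf1 A_51_P517075. Serpinb1c A_52_P493477 and the Serpinb8 junction probe had 15 such alternatives, since neither was the brightest probe of its gene, and the others had 16. No called difference changed its direction under any alternative, the methods' test included. In MDSC (conv.) 18 probes were called, and in 6G- BM-MDSC 22. Without a filter on dim probes, 38 (10 higher, 28 lower) and 41 (11 higher, 30 lower) were called of 85. This setting adds 45 probes that had not passed the filter, of which 20 and 21 were called lower, with a median difference of -0.55 and -0.54, near the gap in background level between the arrays, and it moved the median of all probes to -0.18 and -0.20. The methods' test, Student's on 2 arrays against 2, called 5 probes between the MDSC groups at an unadjusted p under 0.05, and 18 and 18 against DCs. After adjustment it called 0 in all 3 comparisons. Leaving out 1 array gave 13 to 19 calls in MDSC (conv.) and 13 to 20 in 6G- BM-MDSC, where 12 of the 22 calls were kept and 2 gained without 6G- BM-MDSC replicate 2, and 11 were kept and 2 gained without DCs replicate 1. Between the MDSC groups it gave 0 to 0. With 1 array left in a group, that array is assumed to vary like the others. The replicate number as a replicate block called 0 probes between the MDSC groups, 18 against DCs in MDSC (conv.) (9 higher, 9 lower) and 22 in 6G- BM-MDSC (10 higher, 12 lower). The numbers come from the labels with no word of what they share. Deviations of same-numbered arrays correlated at 0.10 between the MDSC groups, 0.11 for MDSC (conv.) and DCs and 0.05 for 6G- BM-MDSC and DCs. With 2 arrays a group, these correlations cannot tell whether same-numbered samples shared an animal, a marrow pool or a culture day. Dim probes, such as Serpina1f, Serpinb1b and Serpini1, are limited by signal over background. The background level differed between MDSC and DC arrays, and its part in their differences was not tested.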
